A study of Mus musculus with 6 samples.

Results

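The 10 genes described here, Amy1, Glb1l3, Csrp3, Dnah7c, Trim43c, Tmem116, Fndc1, Skap2, Calcr and Zc3h12b, are genes that are little studied in rods and were selected on their RNA level in rods, which was higher in old retinas. They are 10 of the 32285 genes in the count tables, found by symbol, and all 10 were present. They were chosen by the difference between the ages in rods in these same libraries, so that difference is given below as a description and without a test. The series sequenced single nuclei of retinas from wild-type C57BL6/J mice, with 3 libraries at 18 months of age and 3 libraries at 3 months of age. Its title concerns polyunsaturated fatty acid supplementation and loss of vision with age, and no supplemented retina is among these libraries. All libraries share the genotype and the tissue, and the labels do not give the sex, the number of animals behind a library or whether animals were pooled.

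Rods are the photoreceptors of dim light. Their outer segment is a modified, non-motile cilium packed with rhodopsin discs, and their transcription depends on the factors CRX, NRL and NR2E3. None of the 10 genes belongs to phototransduction or to the visual cycle. Calcr encodes the calcitonin receptor, a G protein-coupled receptor known from osteoclasts and the hypothalamus, and Tmem116 encodes a multi-pass membrane protein of little-known function. Fndc1 encodes a protein with fibronectin type III repeats, known in the rat heart as an activator of G protein signalling. Skap2 encodes an adaptor of Src family kinases that is best known in leukocytes.

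Amy1 encodes an alpha-amylase of saliva, which cleaves starch. Glb1l3 encodes a relative of beta-galactosidase. Csrp3 encodes muscle LIM protein, a part of the Z-disc of heart and skeletal muscle. Dnah7c encodes a heavy chain of axonemal dynein, the motor of motile cilia. Trim43c belongs to a family of tripartite motif proteins known from the early mouse embryo, and Zc3h12b belongs to the CCCH zinc finger ribonucleases related to Regnase-1.

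The genes lie on 8 chromosomes of GRCm38 (mm10), with gene bounds from GENCODE M21. Glb1l3 (ENSMUSG00000031966) spans bases 26817953 to 26860890 of chromosome 9 on the minus strand, and Trim43c (ENSMUSG00000067399) spans bases 88839164 to 88848190 of the same chromosome on the plus strand. Skap2 (ENSMUSG00000059182) spans 51857422 to 52012549 and Calcr (ENSMUSG00000023964) spans 3685680 to 3764714 of chromosome 6, both on the minus strand. Amy1 (ENSMUSG00000074264) lies on chromosome 3 from 113555710 to 113606699, minus strand, and Csrp3 (ENSMUSG00000030470) on chromosome 7 from 48830398 to 48848033, minus strand. Dnah7c (ENSMUSG00000101337) lies on chromosome 1 from 46425592 to 46807476, plus strand, and Tmem116 (ENSMUSG00000029452) on chromosome 5 from 121451893 to 121524183, plus strand. Fndc1 (ENSMUSG00000071984) lies on chromosome 17 from 7738569 to 7827302, minus strand, and Zc3h12b (ENSMUSG00000035045) on chromosome X from 95711678 to 95932637, plus strand. Exons cover between 3.30% of the gene, in Dnah7c, and 22.0%, in Trim43c.

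Of the 10 genes, 9 had a promoter sequence in the RefSeq table of build GRCm38.p6. The sequences below are the bases before the start of 4 of them, 5′ to 3′ on the strand of the gene and ending before its first exon. Glb1l3, Csrp3 and Fndc1 are shown because they were the members most often higher in rods than in other classes, and Calcr because its gap between the ages in rods was the widest. Capitals mark CAGCTG, an E-box.
Glb1l3, chr9:26860891-26861073, minus strand: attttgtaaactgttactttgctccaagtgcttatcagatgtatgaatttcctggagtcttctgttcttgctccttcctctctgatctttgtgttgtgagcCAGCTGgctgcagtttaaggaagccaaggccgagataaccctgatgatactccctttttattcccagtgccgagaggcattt
Csrp3, chr7:48848052-48848301, minus strand: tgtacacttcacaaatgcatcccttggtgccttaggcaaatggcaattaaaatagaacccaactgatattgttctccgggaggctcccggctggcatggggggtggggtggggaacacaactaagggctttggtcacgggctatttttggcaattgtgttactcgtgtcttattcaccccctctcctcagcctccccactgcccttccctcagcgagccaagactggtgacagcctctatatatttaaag
Fndc1, chr17:7827303-7827552, minus strand: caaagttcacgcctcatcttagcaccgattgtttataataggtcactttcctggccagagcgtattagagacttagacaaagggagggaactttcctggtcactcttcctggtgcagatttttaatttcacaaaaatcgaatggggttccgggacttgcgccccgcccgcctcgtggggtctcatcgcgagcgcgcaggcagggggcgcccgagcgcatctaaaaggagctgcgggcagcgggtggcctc
Calcr, chr6:3764715-3764963, minus strand: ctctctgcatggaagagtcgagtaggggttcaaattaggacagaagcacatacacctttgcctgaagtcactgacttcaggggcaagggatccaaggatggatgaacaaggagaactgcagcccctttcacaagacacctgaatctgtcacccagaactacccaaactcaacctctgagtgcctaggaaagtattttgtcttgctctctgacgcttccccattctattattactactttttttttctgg
Letters of 3 motifs were searched on both strands of the 300 bases from 250 before to 50 after each start, TAATCC of CRX-like sites, TGCTGAC of NRL-like sites and the palindrome CAGCTG. Of these, TAATCC was found in 7.06%, TGCTGAC in 4.67% and CAGCTG in 16.3% of the 32851 promoters of that length. Among the members, Glb1l3 held 1 CAGCTG, the second start of Amy1 held 1 TGCTGAC, and the inner start of Tmem116 held 2 TAATCC and 1 CAGCTG. The windows of Csrp3, Dnah7c, Fndc1, Skap2, Calcr and Zc3h12b held none of these letters. The nearest RefSeq start of Amy1 lies 28949 bases from its GENCODE start, while those of Fndc1, Skap2 and Zc3h12b coincide with it.

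The 6 libraries held 62893 barcodes with 15905689 to 29340705 unique molecular identifiers (UMIs, counted RNA molecules) each, of which 55230 nuclei passed the limits on detected genes and on mitochondrial RNA. A nucleus was given a cell class when the markers of 1 class and of no other stood above their share in its library. This gate took 1229, 3569 and 983 rods in 18-month replicates 1 to 3 and 703, 2107 and 1891 rods in 3-month replicates 1 to 3, and all 12 rod markers were detected in them at both ages. In 18-month replicate 3, which stood apart, 85.7% of nuclei met no gate, against 41.1% to 57.6% in the other libraries. Rods within a factor of 10 of the gate's limit on p numbered 165, 1065 and 412 in 18-month replicates 1 to 3. In 3-month replicates 1 to 3 they numbered 119, 271 and 227. Pairs of libraries shared 8 to 71 barcodes, or 0.152% to 0.534% of the smaller library. Replicate 1 of each age was counted with Cell Ranger 7.1.0 and the other libraries with 7.2.0, so replicate 1 and the release cannot be told apart.

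Calcr showed the widest gap. In rods it had 61.0, 15.4 and 10.2 normalised CPM (counts of UMIs per fixed total of a library's summed rods, the usual CPM scale, corrected by TMM factors) in 18-month replicates 1 to 3, against 0.93, 0.54 and 0.44 in 3-month replicates 1 to 3. These values rest on 164, 69 and 14 UMIs at 18 months and on 1 UMI in each library at 3 months. No 3-month library reached the lowest 18-month one, and 18-month replicate 1 stood far above the other 18-month libraries. Over the summed rods the ratio of 18 to 3 months was 59.0, with an exact 95% counting interval of 19.9 to 288, which covers counting error and not the spread between libraries. Calcr was picked by these same rods, so the interval is no test of the difference. Of the 247 UMIs in 18-month rods, 164 came from replicate 1. Its fitted log2 difference of 5.15 ± 0.49 (SE) depends on how the fit treats counts near 0.

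**Figure D1:**
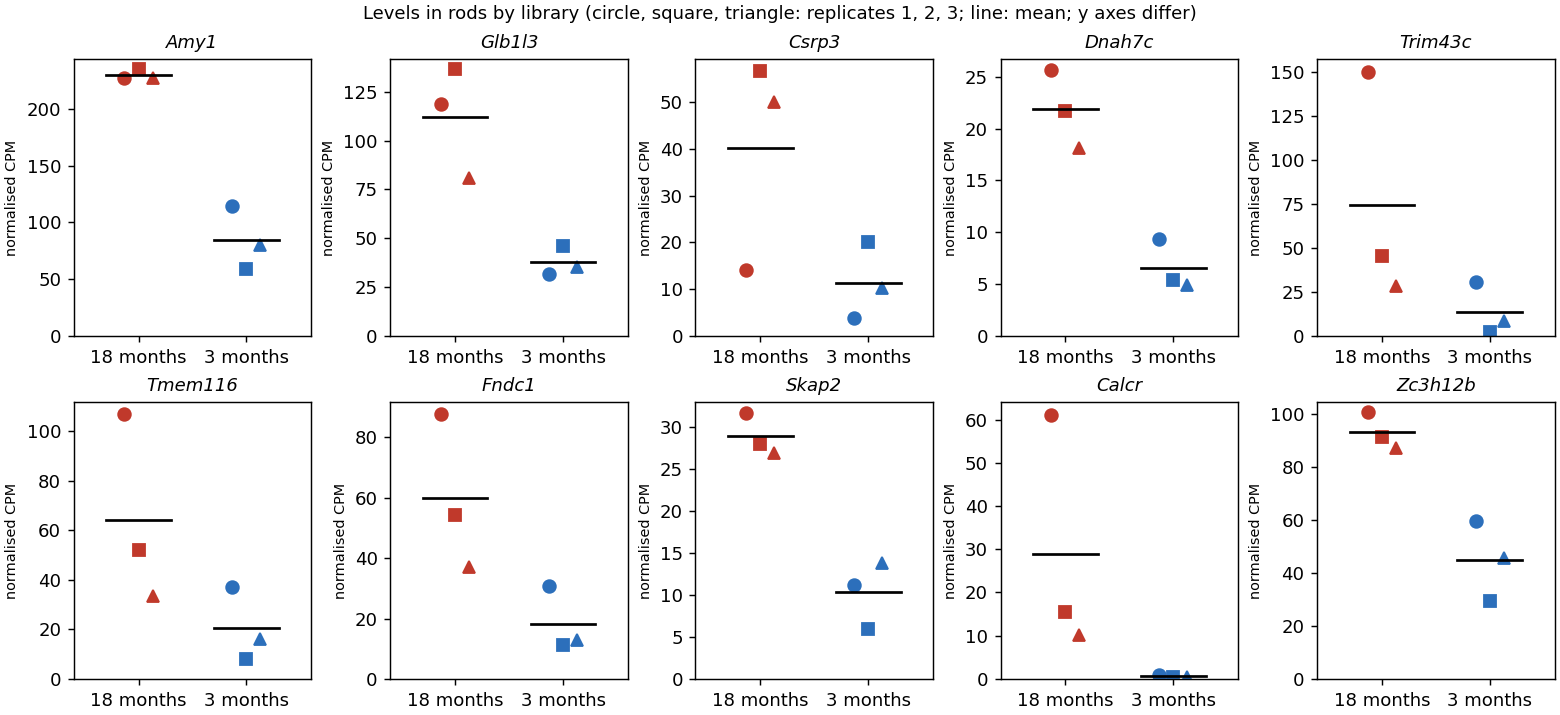
Levels of the 10 genes in rods, in normalised CPM on y axes from 0 that differ between panels, with 18-month libraries in red on the left and 3-month libraries in blue on the right; each point is 1 library and each line the mean of 3. In 7 panels all red points lie above all blue points, while in those of Csrp3, Trim43c and Tmem116 the lowest red point lies below the highest blue one.

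The other membrane and signalling genes had smaller gaps. Tmem116 had 107, 51.9 and 33.4 normalised CPM in 18-month rods, against 37.2, 8.14 and 16.0 in 3-month rods, a log2 difference of 1.71 ± 0.32 (SE). Its ages overlapped, because 3-month replicate 1 lay above 18-month replicate 3. Fndc1 had 87.8, 54.4 and 37.0 normalised CPM in 18-month rods, against 30.7, 11.4 and 12.9 in 3-month rods, a log2 difference of 1.78 ± 0.27 (SE), and its ages did not overlap. Skap2 had 31.6, 28.0 and 26.9 normalised CPM in 18-month rods, against 11.2, 5.97 and 13.8 in 3-month rods, with a log2 difference of 1.47 ± 0.34 (SE). The 18-month values of Skap2 were close to each other and all above the 3-month values. Skap2 is also a gene of immune cells, and the 12 microglia markers summed to 79.6 to 148 CPM in 18-month rods and 95.9 to 171 CPM in 3-month rods, overlapping between the ages. By mean level 10 of these markers were higher and 1 lower in 18-month rods, and their part in the Skap2 values was not tested. Of the markers, Fcrls had no UMI in rods of either age, and Itgam and Aif1 had none in 3-month rods.

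The enzymes had log2 differences of 1.08 to 1.57. Amy1 had 227, 235 and 227 normalised CPM in 18-month rods, against 114, 58.6 and 80.4 in 3-month rods, a log2 difference of 1.49 ± 0.28 (SE). The 18-month libraries lay within a narrow band, and the 3-month libraries were all lower and more spread. Glb1l3 had 119, 137 and 80.6 normalised CPM in 18-month rods, against 31.6, 46.1 and 35.5 in 3-month rods, a log2 difference of 1.57 ± 0.29 (SE), without overlap. Zc3h12b, the ribonuclease, had 101, 91.3 and 87.2 normalised CPM in 18-month rods, against 59.6, 29.3 and 45.7 in 3-month rods. Its log2 difference of 1.08 ± 0.26 (SE) was the smallest of the 10, and its ages did not overlap either.

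The cytoskeletal genes and Trim43c followed. Csrp3 had 14.1, 56.6 and 50.1 normalised CPM in 18-month rods, against 3.72, 20.1 and 10.2 in 3-month rods, a log2 difference of 1.85 ± 0.32 (SE). At both ages its replicate 1 was the lowest, and 18-month replicate 1 lay below 3-month replicate 2. Dnah7c had 25.7, 21.7 and 18.2 normalised CPM in 18-month rods, against 9.31, 5.43 and 4.88 in 3-month rods, a log2 difference of 1.79 ± 0.32 (SE), without overlap. Trim43c had 150, 45.7 and 28.3 normalised CPM in 18-month rods, against 30.7, 2.17 and 8.44 in 3-month rods, a log2 difference of 2.58 ± 0.41 (SE). Replicate 1 was the highest library of its age for Trim43c, Tmem116, Fndc1, Dnah7c and Zc3h12b at both ages, and for Calcr at 18 months. For Trim43c, 3-month replicate 1 exceeded 18-month replicate 3.

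In all, 7 of the 10 members had every 18-month library above every 3-month library in rods, as did 3.48% of the 12709 genes tested there, and the members' median log2 difference was 1.75, against 0.03 over all genes. By log2 difference they ranked from 1 (Calcr) and 6 (Trim43c) to 393 (Zc3h12b) of 12709. These figures restate how the members were picked. Over all genes, the edgeR quasi-likelihood fit with age and Cell Ranger release called 0 genes in rods at an adjusted p of 0.05 (0% of 12709), while 1761 had an unadjusted p under 0.05. DESeq2 called 252. With the replicate number as a block, 1 gene passed.

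Other properties of the rods differed between the ages alongside the members. The 12 rod markers summed to 19331, 32886 and 25051 CPM in 18-month rods, against 32379, 72461 and 53539 in 3-month rods, and 10 of the 12 had a lower mean at 18 months. Markers of other classes had higher means in 18-month rods for 12 of 12 Müller glia, 12 of 12 amacrine, 12 of 12 cone bipolar and 10 of 10 rod bipolar markers. The same held for 9 of the 9 horizontal cell markers that were present. The other lists were mixed to different degrees, with 6 cone markers higher and 6 lower and 9 ganglion cell markers higher and 3 lower. For microglia 10 were higher and 1 lower, for endothelial cells 11 and 1, for astrocytes 7 and 1 and for pigment epithelium 9 and 3. Of the pericyte or smooth muscle markers 9 were higher and 3 lower, while their sum was at 279, 649 and 498 CPM in 18-month rods, against 418, 2151 and 1321 CPM in 3-month rods. The summed Müller glia markers were at 709, 1597 and 1793 CPM in 18-month rods, against 888, 636 and 668 CPM in 3-month rods, and the summed amacrine markers at 866, 632 and 1299 CPM in 18-month rods, against 1091, 345 and 464 CPM in 3-month rods. The median mitochondrial share of UMIs in rods was 1.93%, 1.73% and 2.24% at 18 months, against 3.51%, 3.02% and 1.77% at 3 months. The part of these differences in the members' levels was not tested. Rods had similar depths, with medians of 867 to 1125 UMIs per nucleus at 18 months and 869 to 1057 at 3 months.

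In single nuclei the members were seen in a minority of rods. Amy1 had a UMI in 30.3%, 21.04% and 26.3% of the rods of 18-month replicates 1 to 3 and in 15.1%, 4.18% and 8.51% of those of 3-month replicates 1 to 3. Glb1l3 was seen in 10.8% to 19.0% of 18-month rods and in 3.84% to 4.55% of 3-month rods. Calcr was seen in 95, 61 and 14 nuclei of 18-month replicates 1 to 3, or 7.73%, 1.71% and 1.42% of the rods, against 1 rod in each 3-month library. After thinning every nucleus to 500 UMIs, the expected share with a Glb1l3 UMI was 6.89%, 6.28% and 4.09% of 18-month rods and 0.17%, 1.12% and 1.78% of 18-month retinal ganglion cells. For Amy1 the thinned shares of these classes overlapped, at 11.6%, 9.83% and 11.2% of 18-month rods and 6.10%, 8.84% and 11.6% of 18-month ganglion cells. RNA released from broken cells can add UMIs to any nucleus, so a low share in a class is not by itself a sign of expression.

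The next question was whether the members are rod genes, that is, whether rods hold more of their RNA than other classes do. Rods were compared with each of 7 other classes in all 6 libraries, with the library as a block, by the quasi-likelihood test of edgeR with adjustment over all genes of a comparison. Of the 62 pairs of member and class that passed the low-count filter, 24 were higher and 13 lower in rods, so the members did not share 1 pattern. Against cones 3 members were higher in rods, where 17.6% of all genes were, and 2 lower, where 14.9% were. Against rod bipolar cells 3 were higher (20.9% of all genes) and 2 lower (19.3%), and against cone bipolar cells 1 was higher (20.2%) and 2 lower (19%). Against amacrine cells 6 were higher (28.3%) and 2 lower (24.6%), and against horizontal cells 2 were higher (25.5%) and 2 lower (21.3%). Against ganglion cells 5 were higher (31.8%) and 2 lower (28.2%), and against Müller glia 4 were higher (18.8%) and 1 lower (19.7%). The 3-month and 18-month rods that served in picking the members enter these fits together.

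**Figure D2:**
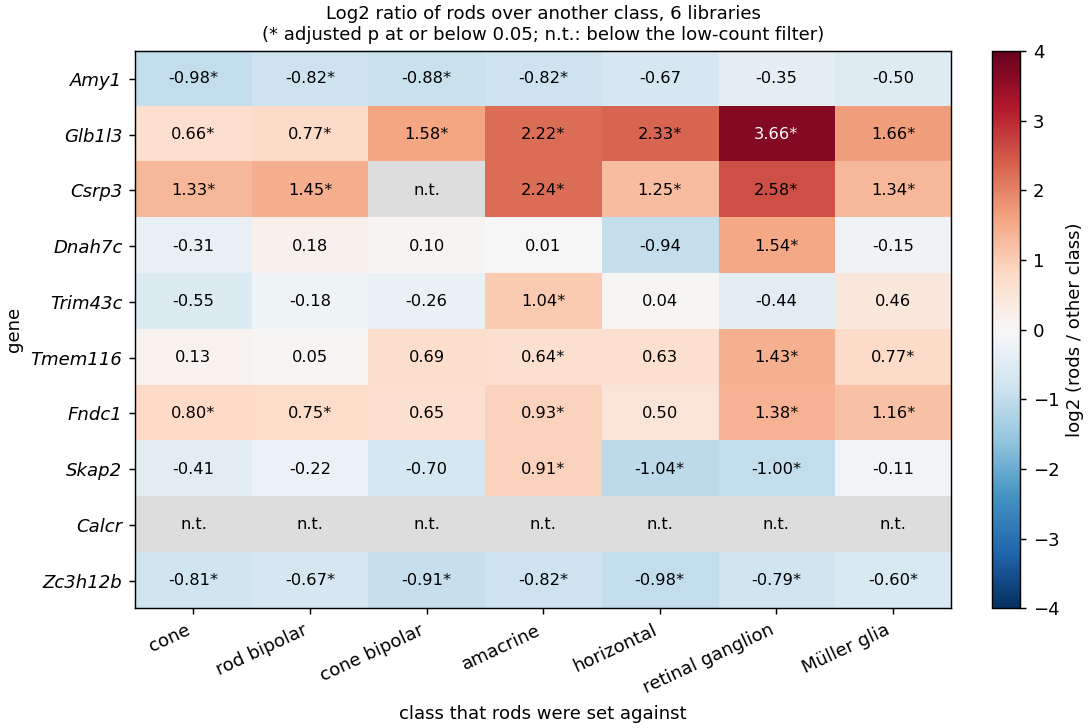
Fitted log2 ratio of rods over each of 7 other classes (columns) for the 10 genes (rows) in 6 libraries, with red for higher and blue for lower in rods, an asterisk for an adjusted p at or below 0.05 and n.t. for a pair below the low-count filter. Glb1l3 is red against all 7 classes, up to 3.66 against retinal ganglion cells, and Zc3h12b is blue against all 7.

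Glb1l3 was higher in rods than in all 7 classes. Its plain CPM, without TMM factors, averaged 119 ± 31.9 in rods, 72.8 ± 14.0 in cones and 18.1 ± 19.7 in retinal ganglion cells at 18 months (SD, n = 3). At 3 months it averaged 34.4 ± 0.27 in rods, 29.0 ± 9.34 in rod bipolar cells and 2.67 ± 1.49 in ganglion cells. The log2 ratio of rods over another class ran from 0.66 ± 0.18 (SE) against cones, with an edgeR adjusted p of 0.0126, to 3.66 ± 0.42 against ganglion cells. Rods were first in order at both ages, although they overlapped with the class second in order, cones at 18 months and rod bipolar cells at 3 months. These calls held without each library in turn, but each such fit keeps 18-month rods, whose high values chose Glb1l3. In the 3-month libraries alone Glb1l3 was called higher in rods against 4 of the 7 classes, with log2 ratios over the 7 of 0.40 to 3.62. In the 18-month libraries alone it was called against 7.

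Csrp3 was higher in rods than in each of the 6 classes where it could be tested, with log2 ratios from 1.25 ± 0.45 (SE) against horizontal cells (edgeR adjusted p = 0.0350) to 2.58 ± 0.40 against ganglion cells. It averaged 41.6 ± 22.0 plain CPM in 18-month rods and 16.1 ± 11.4 in 18-month cones, the class second in order (SD, n = 3). In the 3-month libraries alone Csrp3 passed the low-count filter against 0 classes, so these calls rest on the 18-month rods, whose high values chose it. Without 18-month replicate 2, which held 253 of its 360 UMIs in 18-month rods, 3 of the 6 calls were lost, and the call against horizontal cells was also lost without 18-month replicate 1, 18-month replicate 3 or 3-month replicate 2. Fndc1 was higher in rods than in 5 of 7 classes, with log2 ratios of 0.75 to 1.38 in those called and 0.65 and 0.50 against cone bipolar and horizontal cells, which did not pass. Of its 5 calls, leaving out 18-month replicates 1, 2 and 3 in turn lost 4, 3 and 1, and leaving out 3-month replicate 1 lost 2.

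Tmem116 was higher in rods than in Müller glia, amacrine and ganglion cells (log2 ratios of 0.77, 0.64 and 1.43), and against cones and rod bipolar cells its ratios were 0.13 ± 0.19 and 0.05 ± 0.23 (SE). Of its 3 calls, 2 were lost without 18-month replicate 1 or 18-month replicate 2, and 1 without 3-month replicate 3. Trim43c was called higher in rods against amacrine cells only (1.04 ± 0.34), and Dnah7c against ganglion cells only (1.54 ± 0.40), and both calls were lost without 18-month replicate 1 and without 18-month replicate 2. In the 3-month libraries alone Trim43c was called lower in rods against 4 of the 5 classes tested, with log2 ratios over the 5 of -1.80 to -1.18, and Dnah7c against 1 of 3, while Fndc1 and Tmem116 had 0 calls in 7 classes. In the 18-month libraries alone Trim43c was called higher in rods against 3 of 7 classes, Dnah7c against 1, Fndc1 against 6 and Tmem116 against 4. Skap2 was higher in rods than in amacrine cells (0.91 ± 0.33) and lower in rods than in horizontal cells (-1.04 ± 0.30) and ganglion cells (-1.0 ± 0.28). The call against amacrine cells was lost without 18-month replicate 1, 18-month replicate 2 or 3-month replicate 1. In the 18-month libraries alone Skap2 was called higher in rods against 1 of 7 classes and lower against 0. In the 3-month libraries alone it was called higher against 0 and lower against 1 of 5 classes. Ganglion cells were first in order for Skap2 at both ages, at 44.6 ± 15.8 plain CPM at 18 months and 29.5 ± 1.47 at 3 months (SD, n = 3). The libraries of ganglion cells overlapped with those of the class second in order, cone bipolar cells at 18 months and horizontal cells at 3 months.

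Calcr lay below the low-count filter in the comparisons over both ages. At 18 months it had 71.0, 15.6 and 10.4 plain CPM in rods, 29.3, 6.65 and 2.39 in rod bipolar cells and 17.6, 6.27 and 13.1 in cones. Rods were the highest of these classes in replicates 1 and 2, and cones in replicate 3. In each class replicate 1 was the highest library. These values rest on 35, 8 and 1 UMIs in rod bipolar cells and 19, 7 and 6 UMIs in cones.

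Amy1 and Zc3h12b were called lower in rods against several classes and higher against 0. Zc3h12b was lower in rods than in all 7 classes, with log2 ratios from -0.98 ± 0.28 (SE, horizontal cells) to -0.60 ± 0.22 (Müller glia, edgeR adjusted p = 0.0409). Amy1 was lower in rods than in 4 of 7 classes, at -0.98 ± 0.24 against cones, -0.88 ± 0.27 against cone bipolar cells, -0.82 ± 0.30 against amacrine cells and -0.82 ± 0.26 against rod bipolar cells. Its ratios against horizontal, Müller and ganglion cells were -0.67, -0.50 and -0.35 and did not pass. Of these calls, 3 of the 4 of Amy1 and 5 of the 7 of Zc3h12b were lost without 3-month replicate 3. The call of Amy1 against amacrine cells was also lost without 18-month replicate 3 or 3-month replicate 2. For Zc3h12b, leaving out 18-month replicates 2 and 3 lost 2 and 4 calls, and leaving out 3-month replicates 1 and 2 lost 1 and 3. Each of these fits keeps 3-month rods, whose low values served in choosing both genes. In the 3-month libraries alone Amy1 was called lower in rods against 6 of 7 classes and Zc3h12b against 7. In the 18-month libraries alone both had 0 calls in 7 classes.

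**Figure D3:**
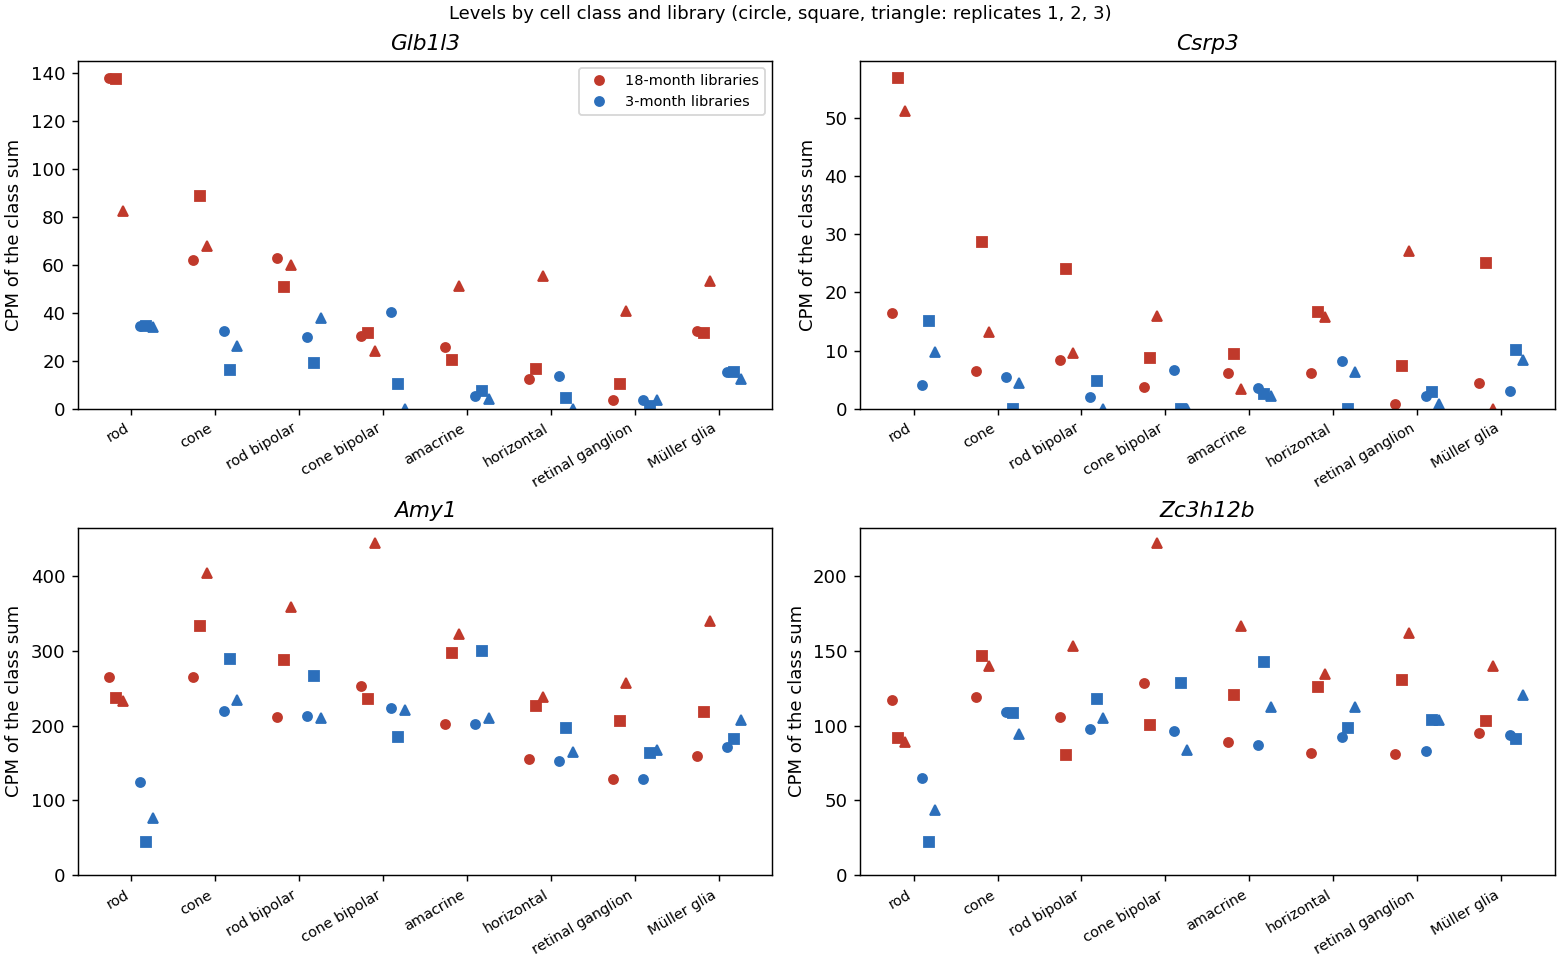
Levels of Glb1l3, Csrp3, Amy1 and Zc3h12b in 8 cell classes, in CPM of the summed nuclei of a class in a library, on y axes from 0; 18-month libraries are red and stand left of the 3-month libraries in blue, and each point is 1 library. The blue points of Amy1 and Zc3h12b in rods lie below those of every other class, while the red points in rods lie among them or just below.

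The place of rods among the classes was then compared between the ages for these genes. Amy1 averaged 245 ± 17.4 plain CPM in 18-month rods, the fifth of 8 classes, and 82.0 ± 40.8 in 3-month rods, the lowest of 8 (SD, n = 3). In cones, the first in order at both ages, it averaged 334 ± 69.5 at 18 months and 248 ± 36.6 at 3 months. Zc3h12b averaged 99.5 ± 15.5 plain CPM in 18-month rods and 43.6 ± 21.6 in 3-month rods, the lowest of 8 classes at both ages. All libraries of the 7 other classes lay above all rod libraries at 3 months for both genes, and at 18 months those of 1 class did. In the 3-month libraries alone the log2 ratio of rods over another class was -1.51 to -1.02 for Amy1 and -1.55 to -1.11 for Zc3h12b, and in the 18-month libraries alone it was -0.42 to 0.28 and -0.58 to -0.08. The difference between these pairs of ranges uses the rod values that picked the members, so it was not tested.

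The same members were then compared between the ages in the 7 other classes, which the picking did not use. Of 39 pairs of member and class above the low-count filter, the edgeR fit with age and release called 0, although 13 had an unadjusted p under 0.05. DESeq2 also called 0. With the replicate number as a block, 0 of the 39 passed as well. Over all genes this block gave 165 calls over the 7 classes, against 148 with the release. Ganglion cells had 26 calls against 11 and Müller glia 7 against 1, while horizontal cells had 128 against 134. Over all genes 0% were called higher in cones, rod bipolar, cone bipolar and amacrine cells, 1.83% in horizontal cells, 0.0272% in ganglion cells and 0.0122% in Müller glia. The log2 difference was above 0 in 38 of the 39 pairs, Zc3h12b in horizontal cells (-0.07 ± 0.24, SE) being the exception, while 48.1% to 50.7% of all genes were above 0 in these classes. The classes come from the same libraries, so the 39 pairs are not independent. A sparse pair can also pass the low-count filter on its 18-month libraries alone, which favours a difference above 0. With no low-count filter 67 of 70 pairs lay above 0, while 49.3% (cones) to 57.0% (Müller glia) of all genes did. A stricter gate (4 markers, p below 1e-06) left 21 pairs, of which 18 lay above 0, and in amacrine cells 0 of 2 did. Over all genes 47.4% (cones) to 51.2% (amacrine cells) lay above 0 in the classes that this gate left. The 12 rod markers together were lower at 18 months in mean level in 7 to 12 of 12 cases in each of these classes, and RNA of rods in the other nuclei was not tested as a source of the members' values.

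**Figure D4:**
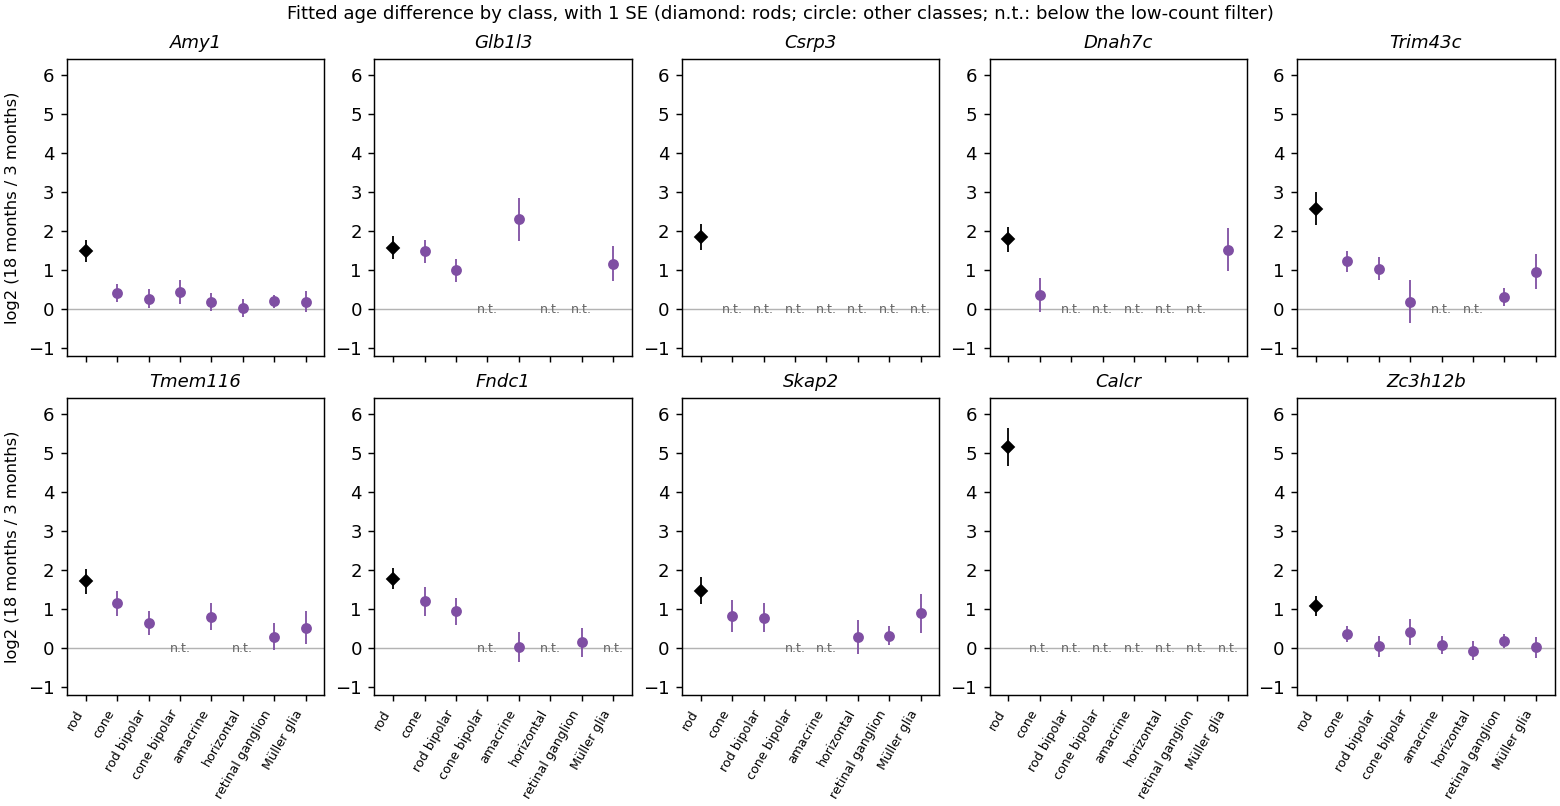
Fitted log2 difference of 18 over 3 months with 1 SE for each gene in 8 classes, rods as a black diamond at the left and other classes as purple circles; n.t. marks a class where the gene lay below the low-count filter. For Glb1l3 the circles stand at 0.99 to 2.30, near the diamond at 1.57, and for Amy1 and Zc3h12b they stand between -0.07 and 0.45, below the diamonds.

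In 8 of the 39 pairs every 18-month library lay above every 3-month library. These were Glb1l3, Fndc1 and Zc3h12b in cones, where 3.01% of all genes did so, Glb1l3 and Skap2 in rod bipolar cells (2.75%), Glb1l3 in amacrine cells (3.93%), and Glb1l3 and Dnah7c in Müller glia (2.85%). In cone bipolar, horizontal and ganglion cells 0 of the members tested did so, against 2.84%, 6.67% and 3.08% of all genes. Glb1l3 was thus the member most often without overlap outside rods. In cones it had 61.2, 90.6 and 73.4 normalised CPM at 18 months, against 32.5, 17.3 and 27.2 at 3 months, a log2 difference of 1.48 ± 0.30 (SE) with an edgeR adjusted p of 0.940. In amacrine cells it had 25.9, 21.6 and 56.6 normalised CPM at 18 months, against 5.40, 8.05 and 4.42 at 3 months, a log2 difference of 2.30 ± 0.55 with an edgeR adjusted p of 0.192, from 66 UMIs at 18 months and 8 at 3 months. In rod bipolar cells and Müller glia the log2 differences were 0.99 ± 0.30 and 1.16 ± 0.45. None of these differences passed the test over all genes. Sparse pairs such as Glb1l3 in amacrine cells and Dnah7c in Müller glia can pass the low-count filter on their 18-month libraries alone. Such passing favours a gap without overlap.

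Dnah7c had a log2 difference of 1.52 ± 0.56 (SE) in Müller glia and 0.36 ± 0.43 in cones. Skap2 was at 0.89 ± 0.49 in Müller glia, 0.82 ± 0.41 in cones and 0.77 ± 0.37 in rod bipolar cells. Trim43c had log2 differences of 1.22 ± 0.27 (SE) in cones, 1.04 ± 0.30 in rod bipolar cells and 0.96 ± 0.44 in Müller glia. Those of Tmem116 were 1.14 ± 0.32 in cones and 0.80 ± 0.34 in amacrine cells, and those of Fndc1 were 1.20 ± 0.37 in cones and 0.94 ± 0.34 in rod bipolar cells. In ganglion cells Trim43c, Tmem116 and Fndc1 were at 0.31, 0.29 and 0.15, and Fndc1 in amacrine cells was at 0.03 ± 0.38. Amy1 and Zc3h12b were tested in all 7 classes and were at 0.03 to 0.45 and at -0.07 to 0.41 over them. Calcr, which was too sparse to test outside rods, had 32 UMIs in 18-month cones and 2 in 3-month cones, a ratio of 12.7 with an exact 95% counting interval of 3.24 to 110. In rod bipolar cells it had 44 UMIs at 18 months and 5 at 3 months, a ratio of 7.14 (2.84 to 23.1). Csrp3 had 45 UMIs in 18-month cones and 8 in 3-month cones, a ratio of 4.47 (2.09 to 11.0). Lower limits also lay above equal levels for Calcr in amacrine cells and Müller glia and for Csrp3 in rod bipolar cells and Müller glia. They lay below equal levels for Calcr in cone bipolar, horizontal and ganglion cells and for Csrp3 in cone bipolar, amacrine, horizontal and ganglion cells. The intervals cover counting error and not the spread between libraries.

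Several members overlap or resemble another gene, which limits what their counts show. Whether reads were counted by strand, and how reads that fit several genes were treated, is not given in the sources used here. Trim43c overlaps the non-coding 9330159M07Rik on the opposite strand, which had 74.4 ± 34.2 plain CPM in 18-month rods and 16.6 ± 6.78 in 3-month rods (SD, n = 3). Its paralog Trim43a had 22.9 ± 19.5 in 18-month rods and 6.66 ± 6.08 in 3-month rods. Both were highest in 18-month replicate 1, as Trim43c was. Dnah7c lies 52045 bases from the related dynein gene Dnah7b, which had 167 ± 106 plain CPM in 18-month rods and 72.5 ± 57.0 in 3-month rods. Levels of Trim43c and Dnah7c are therefore uncertain.

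**Figure D5:**
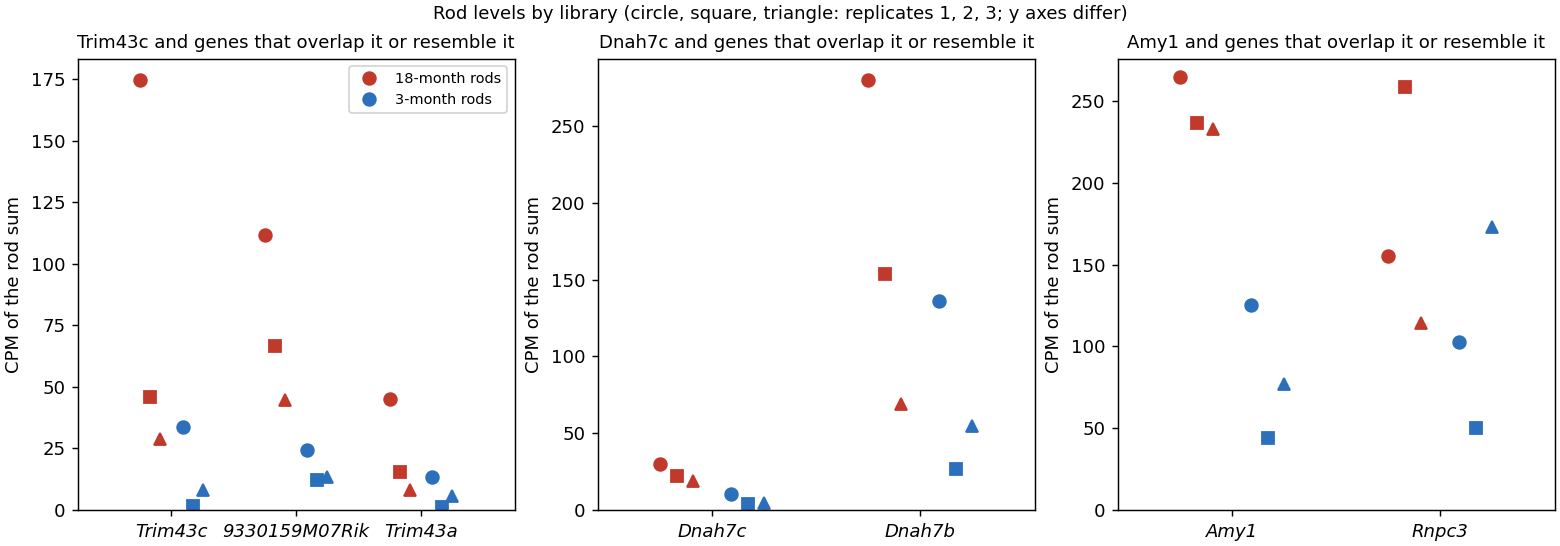
Levels in rods of Trim43c, Dnah7c and Amy1 and of genes that overlap or resemble them, in CPM of the summed rods on y axes from 0 that differ between panels; red points are 18-month libraries, left of the 3-month libraries in blue, and each point is 1 library. The red points of 9330159M07Rik lie at 44.6 to 112, above its blue points at 12.2 to 24.4, while those of Rnpc3 and Dnah7b overlap with the blue ones.

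The start of Amy1 overlaps the 3′ end of Rnpc3, a spliceosome gene on the same strand. In rods Rnpc3 had 155, 258 and 115 plain CPM at 18 months, against 103, 49.96 and 173 at 3 months, so that its ages overlapped where those of Amy1 did not. In cones the mean of Rnpc3 was 337 ± 265 at 18 months and 443 ± 222 at 3 months (SD, n = 3). The pancreatic amylase gene Amy2a1, next to Amy1, had 0 UMIs in the rods of all libraries. Tmem116 overlaps Erp29, Adam1a and Adam1b on the opposite strand. Erp29 had 67.7 ± 17.1 plain CPM in 18-month rods and 91.6 ± 34.4 in 3-month rods, which is not the order of Tmem116. Adam1a had 12.2 ± 5.59 plain CPM in 18-month rods and 6.22 ± 6.15 in 3-month rods, and Adam1b had 4.12 ± 6.57 in 18-month rods and 0.82 ± 1.07 in 3-month rods, from 30 UMIs at 18 months and 3 at 3 months. Adam1a and Adam1b thus had the order of Tmem116, and both were highest in replicate 1 at each age, as Tmem116 was. The level of Tmem116 is uncertain as well. Csrp3 lies 2957 bases from Zdhhc13, which was at 22.3 ± 7.09 in 18-month rods and 20.6 ± 5.28 in 3-month rods. Glb1l2, the neighbour and relative of Glb1l3, was at a plain CPM of 118 ± 32.2 in 18-month rods and 111 ± 17.1 in 3-month rods. Zc3h12b is X-linked, and all 6 libraries had Uty, a Y-linked gene, at 132 to 238 CPM and Xist at no more than 0.58 CPM, so the ages did not differ in the sex these genes show.

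Other genes of the same families and pathways were compared in rods as a background. Of 63 listed genes 27 passed the low-count filter in rods, and 20 of these had a log2 difference above 0, as did 52.5% of all genes. Their median was 0.39, against 0.03 over all genes. The edgeR fit called 0 of the 27 (smallest adjusted p = 0.346). Every 18-month library lay above every 3-month library in 0 of the 27, against 3.48% of all genes, a share too small for so few genes to be set against. The widest were Trim43a at 1.67 and Dnah7b at 1.15. Of the accessory proteins that turn the calcitonin receptor into an amylin receptor, Ramp3 had 21.1 ± 11.3 normalised CPM in 18-month rods and 46.2 ± 24.4 in 3-month rods (SD, n = 3), a log2 difference of -1.06, and Ramp1 had 4.99 ± 2.46 in 18-month rods and 5.44 ± 4.08 in 3-month rods. Of the beta-galactosidase genes, Glb1 was at 0.41, Glb1l at 0.42 and Glb1l2 at -0.13. The closest measured relative of Zc3h12b, Zc3h12c, was at 0.21, and the cysteine-rich LIM genes Csrp1 and Csrp2 were at 0.51 and 0.39. Of the kinases that act with Skap2, Fyn was at 0.43 and Lyn at 0.76, and Sirpa, a receptor of the same pathway, was at -0.56.

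Genes with the most similar pattern were sought over the 48 sums of 8 classes in 6 libraries, which share libraries and depth, among 10907 genes with a mean of at least 10 CPM. For Amy1 the closest gene was Zc3h12b, another member (Pearson r of log2(CPM + 1) = 0.872), and then the sodium leak channel subunit Unc80 (0.847). For Zc3h12b they were Tbc1d5 (0.899) and Fam172a (0.875). For Glb1l3 they were the phosphatase Ptp4a2 (0.839) and the unnamed gene model Gm33497 (0.835). Gm33497 had 114 ± 36.7 plain CPM in 18-month rods and 24.6 ± 20.4 in 3-month rods (SD, n = 3), and it was also among the closest to Csrp3 (0.584), after Ywhae (0.586). Trim43c and Tmem116 were among each other's closest (0.788), with Cnnm2 (0.779) and Ip6k1 (0.799) beside them. Col4a3, a collagen IV chain, was closest to Calcr (0.709) and among the closest to Fndc1 (0.678), with Arntl (0.679) and St6galnac5 (0.726) as the other genes of these pairs. The closest to Dnah7c were Nsmce2 (0.662) and Fndc1 (0.649), and the closest to Skap2 were Grk5 (0.644) and Diaph2 (0.625). The sums include the rods whose age difference chose the members, so the likeness between members is partly fixed by that choice.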

How the data were processed

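The authors deposited raw UMI counts per gene and barcode from Cell Ranger, release 7.1.0 or 7.2.0 per the file headers, and the submitters' processing notes name mm10 and Seurat. The labels do not say that libraries are separate animals, so p-values measure the spread between libraries, which may be partly technical. The members and all gene lists were chosen with earlier results of these data known.

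Nuclei needed at least 300 detected genes and at most 5% mitochondrial UMIs. A class needed at least 3 of its markers and a Poisson p below 0.001 for its list, and nuclei that met several gates were left out, so that no doublet caller was run. The limits of the gate were set after marker levels had been seen and without looking at the members. Of 55230 nuclei 19927 met exactly 1 gate. Classes were kept where each library held 20 nuclei or more, which left 8, namely rods, cones, rod bipolar, cone bipolar, amacrine, horizontal and ganglion cells and Müller glia, and the other 5 classes were not tested. Summed UMIs per library ran from 983645 to 4437355 in rods and from 125791 to 2780654 in the other classes, and these totals set the counting error.

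Counts were summed per library and class and tested by quasi-likelihood in R 4.3.3 with edgeR 4.0.16, which loads limma 3.58.1, after TMM scaling and filterByExpr, with Benjamini-Hochberg adjustment over all genes. Age was fitted with the Cell Ranger release, and rods against another class with the library as a block. The fit was tested on simulated data. Alternatives were age alone, the replicate number as a block, DESeq2 1.42.0 and its size factors, no low-count filter, no mitochondrial limit, a stricter gate (4 markers, p below 1e-06), single releases or ages and each library left out. Same-numbered libraries deviated together, with every correlation above 0.1, in rods (0.73, 0.76 and 0.18), cones, ganglion cells and Müller glia. In the other classes the correlations of replicates 1 and 2 were above 0.1. Those of replicate 3 were not, from -0.02 in cone bipolar to 0.09 in rod bipolar cells. Some differently numbered libraries also deviated together, such as 18-month replicate 2 with 3-month replicate 3 in rods (0.45). Whether the replicate number pairs the libraries is therefore uncertain, and it entered as a block only in an alternative fit. Replicate 1 also shares its release. Named genes are the members, their listed relatives, their neighbours and the 2 genes with the closest pattern. Gene bounds are from GENCODE M21, which holds 32158 of the 32285 gene identifiers, and promoters from RefSeq. Python 3.11.15 with numpy 2.4.6, scipy 1.17.1, pandas 2.3.3 and matplotlib 3.10.9 was used. Intervals and counts of UMIs cover counting error only.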

Additional observations from a re-analysis of the deposited data

How the results depend on the processing

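In rods the log2 difference of all 10 members stayed above 0 in each of 15 fits, from 0.87 for Zc3h12b to 5.65 for Calcr, but these fits use the libraries that picked the members. Genes called in rods, higher or lower, numbered 0 with age and release, 162 with no low-count filter and 252 with DESeq2. They numbered 1 with the replicate block, with the stricter gate and with no mitochondrial limit. Leaving out 1 library gave 0 to 11 genes, the 11 without 18-month replicate 3. Outside rods 0 members were called, against 2 with no low-count filter, Glb1l3 in cones (1.48, edgeR adjusted p = 0.0104) and in amacrine cells (2.35, adjusted p = 0.0069), and 0 to 1 without 1 library, Glb1l3 in amacrine cells (2.80, adjusted p = 0.0212) without 18-month replicate 2. Adjusted p of Glb1l3 in amacrine cells ran from 0.0069 to 0.999 over the edgeR fits that gave one. Genes called over the 7 classes numbered 148, against 26 with age alone, 457 with no low-count filter and 402 in release 7.2.0 alone, and 35 to 427 without 1 library. At 18 months, leaving out replicate 1 gave 427 and replicate 3 gave 270, and at 3 months leaving out replicate 1, 2 or 3 gave 408, 35 or 52.

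Of the pairs of member and class, 24 were higher and 13 lower in rods. The stricter gate left 31 pairs in 4 classes, with 9 higher and 9 lower. With 3-month libraries alone 4 were higher and 19 lower, and with 18-month libraries alone 34 were higher and 0 lower, while over all genes 21803 and 20664 were called, against 33352 in 6 libraries. In the 3-month libraries alone Trim43c against horizontal cells was at -1.42 (0.04 in 6 libraries) and Fndc1 against amacrine cells at -0.20 (0.93). Without 1 library 13 to 25 were higher, the 14 and 13 coming from leaving out 18-month replicates 1 and 2, and 5 to 20 were lower, where leaving out 18-month replicate 1 gave 20, 18-month replicate 3 gave 8 and 3-month replicate 3 gave 5. Over all members, classes and alternatives, 70 calls were lost and 24 gained. The 2 ratios of Trim43c and Fndc1 given above changed sign where a fit called them. Ratios that were not called also changed sign, in 18 cases by more than 1 SE of the fit over 6 libraries and in 18 by no more than that. The cause was not tested. Depth limits Calcr most, with 3 UMIs in all 3-month rods, against 64 for Csrp3.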
